A study of Arabidopsis thaliana with 4 samples.

Results

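Core histone genes encode H2A, H2B, H3 and H4, the proteins that package DNA into nucleosomes. The 39 loci described here are a fixed list of Arabidopsis thaliana genes for these proteins, matched by locus to the probe sets of the array through the platform annotation, with no filter on signal. The annotation matched 26 of the 39 loci to 23 of the 22746 non-control probe sets. All 8 H4 loci, all 5 H3.1 loci, all 3 H3.3 loci, the CENH3 locus HTR12 and 9 of the 10 H2B loci were matched. The H2B locus HTB9 and all 12 H2A loci, which include the H2A.X, H2A.W and H2A.Z variants, had no probe set named for them and were not analysed here. The intended comparison with H2A variants therefore has no values.

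Cells make most of their histone mRNA during DNA replication, when new nucleosomes must be assembled on the copied DNA, and transcripts of H4 and H3.1 are used as marks of S phase for that reason. H3.3 is the replacement form, made also outside S phase and placed on transcribed genes, and CENH3 marks centromeres. ANGUSTIFOLIA3, a transcriptional coactivator, promotes cell proliferation in young leaves, and plants that lack it have narrow leaves with fewer cells.

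The samples were 2 arrays of an3-4 mutant and 2 of wild type, both in ecotype Col-0, with no transgene or treatment named in the labels. They hold total RNA of the first leaf primordia, harvested 7 days after sowing from plants grown at 22 °C in continuous light. The study compared gene expression of mutant and wild type at this stage. The labels do not say that replicates came from separate plantings or how many plants were pooled, and the p-values therefore cover only a spread among arrays that could be technical.

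Signals are given after each array was brought to 1 trimmed mean, because same-numbered arrays shared a scale as deposited and the numbers 1 and 2 differed by a log2 ratio of 0.24. Array medians then lay at 67.4 and 69.8 in an3-4, and at 67.4 and 65.3 in wild type. Of the leaf primordium markers, 3 of 7 were measured, and YAB3, YAB5 and PHV lay above the 40th percentile on every array and were not called. All 3 stomatal lineage genes were measured and 0 were called in limma, with none at an unadjusted p under 0.05. Of these, only SPCH lay above the 40th percentile on every array. FMA lay under it on 1 array of each genotype, and MUTE on every array. The shoot meristem marker CLV3, 1 of 4 on its list, lay under that percentile on every array. AN3 itself had no probe set named for it, so the genotype was not checked by its transcript. Root, trichome and photosynthetic markers were likewise not measured. Precision is limited by having 2 arrays per genotype.

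Across the histone genes the difference between the genotypes was small, with exceptions among the H2B genes. HTB11 fell in an3-4, with wild type 2.27-fold above it, and HTB2 fell by a smaller amount. AT2G28720 rose, though its call depended on the processing. Of the 23 histone probe sets, 4 were called at an adjusted p under 0.05 in limma, 3 lower and 1 higher in an3-4. Over all 22746 probe sets 5.16% were called, 2.51% lower and 2.65% higher. Histone probe sets are bright, and bright probe sets are measured more tightly. Among the brightest 40% of probe sets, which hold 18 of the 23, 9.88% were called, 4.86% lower and 5.02% higher. The median log2 fold change of an3-4 over wild type was -0.17 over the 23 probe sets and 0.02 over all probe sets. Of the 23, 20 had a value below 0, against 10760 of all 22746 probe sets and 4330 of the 9098 in the brightest 40%. The 23 include 13 probe sets that each list several loci of a class and may not be independent. The median of the 23 corresponds to a signal 11.3% lower in an3-4 (percent change -11.3). Without the intensity trend limma called 0 probe sets of any kind (2808 at an unadjusted p under 0.05), and an offset of 32 ended the calls of AT2G28720 and of the H4 probe set 252562_s_at. Fewer cells of a type and less RNA per cell cannot be told apart in bulk tissue.

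The replication-dependent H3.1 class is read by 5 probe sets. The annotation lists all 5 H3.1 loci for each, so none was assigned to 1 locus here. Whether each reads 1 locus or several was not tested, so the 5 may not be independent measurements. Probe set 247192_at had signals of 2229 and 2101 in an3-4, against 2310 and 2543 in wild type. Probe set 264262_at had 1653 and 1698 in an3-4, against 1982 and 1882 in wild type. On both, each an3-4 array lay below each wild-type array. Probe set 250433_at had signals of 822 and 876 in an3-4, against 997 and 995 in wild type. Probe set 257714_at had 390 and 397 in an3-4, against 462 and 498 in wild type. The groups were again apart, with replicates close together in each. Probe set 250434_at had 760 and 595 in an3-4, against 823 and 961 in wild type, the widest spread of the 5 within a genotype.

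In all 5 H3.1 probe sets, then, the an3-4 signals lay below the wild-type signals with no overlap. This separation was seen for 20.9% of all probe sets and 26.3% of the brightest 40%. The log2 fold changes ran from -0.40 to -0.16 with a median of -0.23, a percent change of -14.8. The largest was -0.40 ± 0.12 (SE) for 250434_at, with a 95% interval of -0.68 to -0.13, and the smallest -0.16 ± 0.09 for 247192_at, with an interval of -0.36 to 0.03. None of the 5 passed in limma over all probe sets, with adjusted p from 0.0795 for 257714_at to 0.394 for 247192_at. At an unadjusted p under 0.05, 4 of the 5 were lower, against 7.74% of all probe sets and 12.8% of the brightest 40%. Leaving out an3-4 replicate 1 brought 250434_at past the threshold (log2 fold change -0.58, limma adjusted p = 0.0218, range over its alternatives 0.0218 to 0.571). Without an3-4 replicate 2 its log2 fold change was -0.23. Within the arrays numbered 1 the H3.1 differences ran from -0.28 to -0.05, and within those numbered 2 from -0.69 to -0.15.

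**Figure D1:**
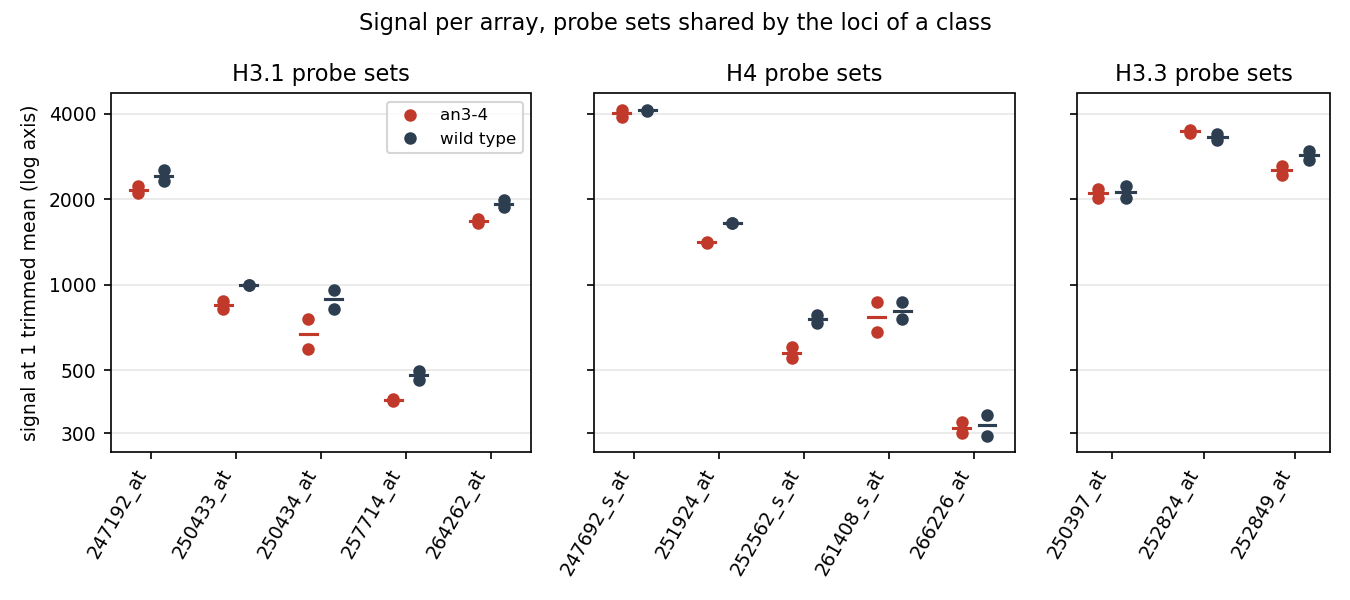
Signal of each array (log axis, after scaling to 1 trimmed mean) for the 5 H3.1, 5 H4 and 3 H3.3 probe sets, an3-4 in red on the left and wild type in dark blue on the right of each pair; points are arrays and bars geometric means of 2. Every H3.1 pair is apart with an3-4 lower, 3 of 5 H4 pairs overlap, and the H3.3 pairs differ in direction.

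H4, which pairs with H3 in every nucleosome, is also read by 5 probe sets, and the annotation lists the same 8 loci for each. The 5 did not behave alike. Probe set 252562_s_at fell in an3-4, with signals of 605 and 550, against 731 and 785 in wild type. Its log2 fold change was -0.39 ± 0.08 (SE), with a 95% interval of -0.58 to -0.21 (limma adjusted p = 0.0262). Probe set 251924_at had 1400 and 1420 in an3-4, against 1649 and 1646 in wild type, so its groups were apart too, by -0.22 ± 0.07, but it was not called (limma adjusted p = 0.142).

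On the other 3 H4 probe sets the genotypes overlapped. The brightest, 247692_s_at, had signals of 3897 and 4127 in an3-4, against 4092 and 4132 in wild type, a log2 fold change of -0.04 with an interval of -0.24 to 0.17. Probe set 261408_s_at had 681 and 866 in an3-4, against 757 and 870 in wild type, a difference of -0.08 with an interval of -0.35 to 0.19. Probe set 266226_at had 300.3 and 329 in an3-4, against 349 and 294 in wild type, a difference of -0.03 with an interval of -0.26 to 0.20. Each of these intervals still holds the H3.1 median of -0.23, but none holds the largest H3.1 decline of -0.40. The log2 ratio of 252562_s_at to 247692_s_at was -2.69 and -2.91 in an3-4, against -2.49 and -2.40 in wild type. These probe sets, though listed for the same loci, thus moved apart by -0.36 between the genotypes. The pair was chosen after its values were seen, and the difference between them was not tested. The H4 median was -0.08, and 1 of 5 probe sets was called lower, against 2.51% of all. The call of 252562_s_at was lost without an3-4 replicate 2 (log2 fold change -0.32, limma adjusted p = 0.137), without wild-type replicate 2 (-0.34, adjusted p = 0.120) and on the scale as deposited (-0.39, adjusted p = 0.588), in a range over its alternatives of 0.00514 to 0.588.

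H3.3, the replacement histone, is read by 3 probe sets that each list AT4G40030, AT4G40040 and AT5G10980. None was called in limma, none had an unadjusted p under 0.05, and they did not share a direction. Probe set 250397_at had signals of 2175 and 2026 in an3-4, against 2017 and 2219 in wild type. Its groups overlapped, at a log2 fold change of -0.01 with an interval of -0.21 to 0.18. Probe set 252824_at had 3518 and 3423 in an3-4, against 3401 and 3223 in wild type. Both an3-4 arrays were higher there, by 0.07 with an interval of -0.13 to 0.26. Probe set 252849_at had 2443 and 2621 in an3-4, against 2956 and 2755 in wild type. Both an3-4 arrays were lower there, by -0.17 ± 0.09 with an interval of -0.37 to 0.02 (limma adjusted p = 0.362), which is as large as the smallest H3.1 difference. The H3.3 median was -0.01.

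HTR12, the gene for the centromeric histone CENH3, has a probe set of its own. Its signals were 90.7 and 92.2 in an3-4, against 101 and 109 in wild type. Both an3-4 arrays were lower, by -0.20 ± 0.13 with an interval of -0.50 to 0.10 (limma adjusted p = 0.522), so it was not called.

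The H3.1 and H4 probe sets were set against those of H3.3 on each array. Each probe set was first expressed as its log2 deviation from its own mean over the 4 arrays, and the deviations were averaged by class. The H3.1 mean was -0.10 and -0.16 on the an3-4 arrays, against 0.09 and 0.17 on the wild-type arrays. The H4 mean was -0.12 and -0.03 in an3-4, against 0.07 and 0.08 in wild type. The H3.3 mean was -0.01 and -0.03 in an3-4, against 0.03 and 0.01 in wild type. H3.1 and H4 together minus H3.3 gave -0.10 and -0.07 in an3-4, against 0.05 and 0.11 in wild type, a difference of -0.17 on the log2 scale. H3.1 alone minus H3.3 differed by -0.22, and H4 alone minus H3.3 by -0.11. The arrays of the genotypes were apart in these 3 contrasts. The gap was smallest in H4, from -0.01 for an3-4 replicate 2 to 0.04 for wild-type replicate 1. In H2B minus H3.3 the genotypes overlapped, at 0.01 and -0.07 in an3-4, against 0.09 and -0.03 in wild type, a difference of -0.06. No p is given for these class means, and an exact two-sided permutation test of 2 arrays against 2 cannot go below 0.333. RNA integrity controls read the ends of the actin, GAPDH and ubiquitin mRNAs. Their mean log2 ratio of 3′ to 5′ signal was 1.75 and 1.77 in an3-4, against 1.56 and 1.57 in wild type. Of the 3 controls only ubiquitin was apart, at 1.65 and 1.74 in an3-4, against 1.51 and 1.41 in wild type, and the actin and GAPDH ratios overlapped between the genotypes. The part of RNA integrity in the histone differences was not tested.

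**Figure D2:**
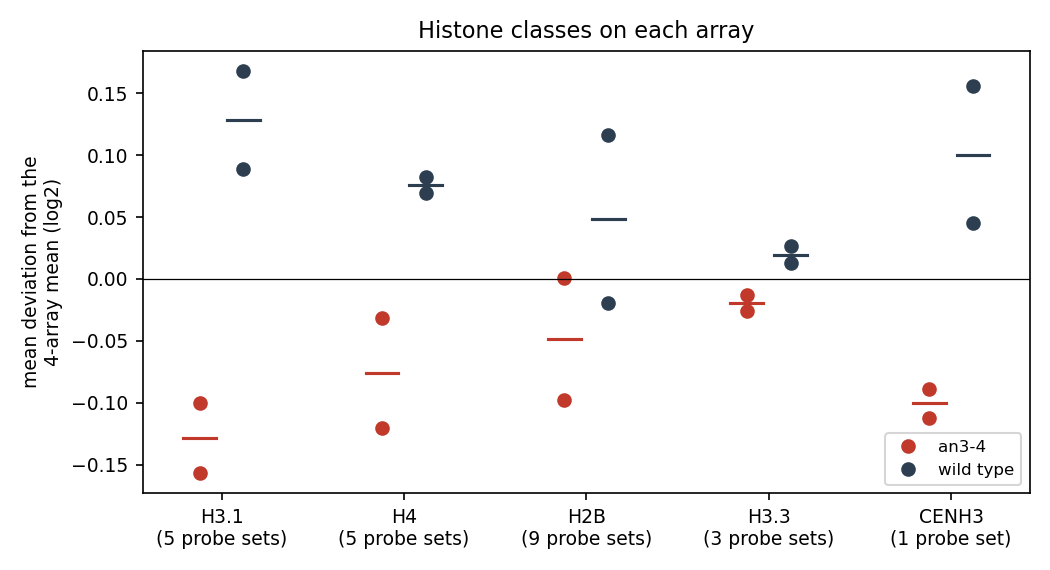
Mean log2 deviation of each histone class from its 4-array mean, on each array; red points on the left are the 2 an3-4 arrays, dark blue points on the right the 2 wild-type arrays, and bars their means. In these means H3.1 is farthest apart among the classes with several probe sets, and H3.3 lies near 0 on every array. The H2B means of the genotypes overlap, but they include AT5G02570, dim on every array. The median deviations of H2B were apart, at -0.065 and -0.048 in an3-4, against 0.011 and 0.083 in wild type.

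H2B genes showed the largest differences and went in both directions. H2B is the partner of H2A in the nucleosome, and its genes encode very similar proteins, so related transcripts could reach a probe set that the annotation gives to 1 locus. That was not tested. Of the 9 measured loci, HTB11 and HTB2 were called lower and AT2G28720 was called higher, against 2.51% and 2.65% of all probe sets, and the median log2 fold change was -0.09.

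HTB11 fell most. Its signals were 316 and 270 in an3-4, against 627 and 701 in wild type, means of 293 ± 32.5 and 664 ± 51.9 (SD, n = 2 each). The groups were far apart, with a log2 fold change of -1.18 ± 0.10 (SE) and a 95% interval of -1.40 to -0.96, so wild type was 2.27-fold above an3-4 (limma adjusted p = 2.77e-04). The difference was -0.99 within the arrays numbered 1 and -1.37 within those numbered 2. Its call was kept in every fit that left out an array, with log2 fold changes from -1.29 to -1.07, and it was the only histone call on the scale as deposited.

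HTB2 had signals of 440 and 444 in an3-4, against 603 and 717 in wild type. The an3-4 arrays agreed closely and both lay below wild type, with a log2 fold change of -0.57 ± 0.09 and a 95% interval of -0.79 to -0.36 (limma adjusted p = 0.00848). On the scale as deposited the call was lost (adjusted p = 0.157), in a range over its alternatives of 2.92e-04 to 0.323.

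AT2G28720 went the other way, at low signals, with both wild-type values below the median of their array. Its signals were 121 and 100.04 in an3-4, against 62.0 and 63.0 in wild type, and its log2 fold change was 0.82 ± 0.16 with a 95% interval of 0.45 to 1.18 (limma adjusted p = 0.0201). The call did not hold without an3-4 replicate 1 (log2 fold change 0.68), without wild-type replicate 1 (0.80) or 2 (0.83), and on the scale as deposited (0.82), with adjusted p from 0.00367 to 0.258 over its alternatives.

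The 2 brightest H2B loci hardly differed. HTB4 had signals of 1145 and 1112 in an3-4, against 1144 and 1198 in wild type, a log2 fold change of -0.05 with an interval of -0.22 to 0.11. HTB1 had 1202 and 940 in an3-4, against 1107 and 1164 in wild type, a difference of -0.09 with an interval of -0.35 to 0.16. In both the groups overlapped. AT2G37470 had 210 and 225 in an3-4, against 215 and 230 in wild type, an overlap as well, at -0.03 with an interval of -0.24 to 0.18.

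The remaining 3 H2B loci were dim as well. AT3G53650 had signals of 47.1 and 61.6 in an3-4, against 57.6 and 69.1 in wild type, which overlapped. AT3G09480 had 22.9 and 28.8 in an3-4, against 56.2 and 46.4 in wild type. For AT3G09480 neither an3-4 signal reached the 40th percentile of its array. Its fitted log2 fold change was -0.99 ± 0.28 (limma adjusted p = 0.0892), and with signals raised to that percentile it was -0.42. AT5G02570 had 26.0 and 14.8 in an3-4, against 13.6 and 3.70 in wild type, all under the 40th percentile, and no fold change is given for it.

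**Figure D3:**
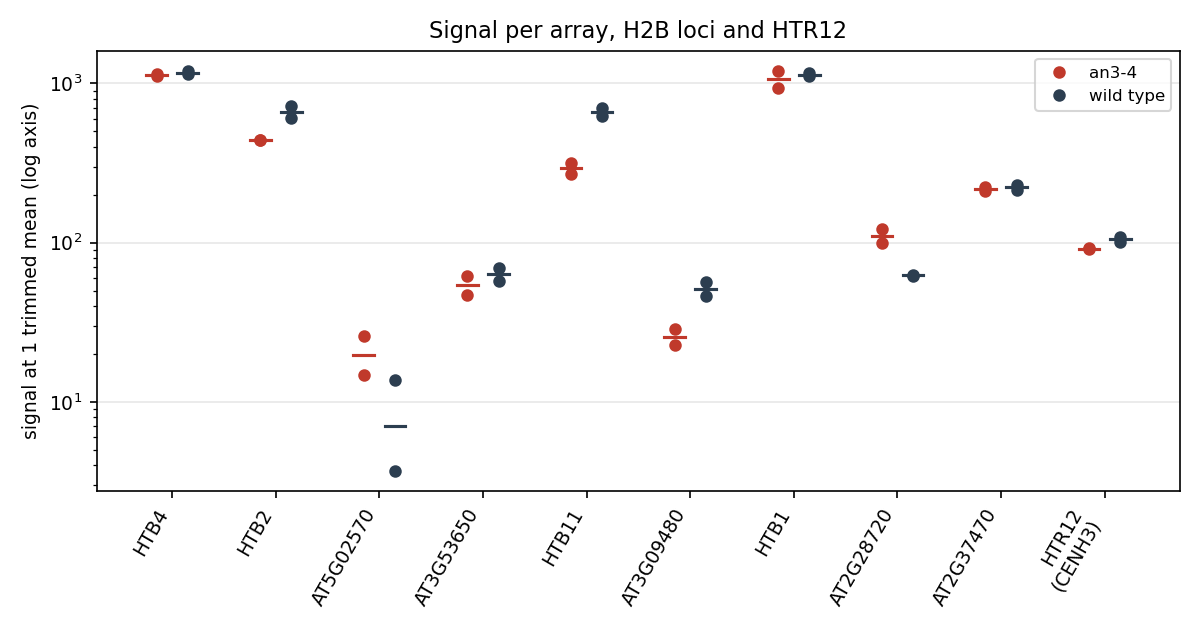
Signal of each array (log axis, after scaling to 1 trimmed mean) for the 9 H2B loci and HTR12, an3-4 in red on the left and wild type in dark blue on the right of each pair; points are arrays and bars geometric means of 2. HTB11 and HTB2 are apart with an3-4 lower, AT2G28720 is apart with an3-4 higher, and HTB4, HTB1 and AT2G37470 overlap.

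HTB11 and HTB4, 2 genes for the same histone, parted within each array. The log2 ratio of the HTB11 to the HTB4 signal was -1.86 and -2.04 in an3-4, against -0.87 and -0.77 in wild type, a difference of -1.13 that a common scale factor leaves as it is. This pair too was chosen with its values known, and the difference was not tested.

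**Figure D4:**
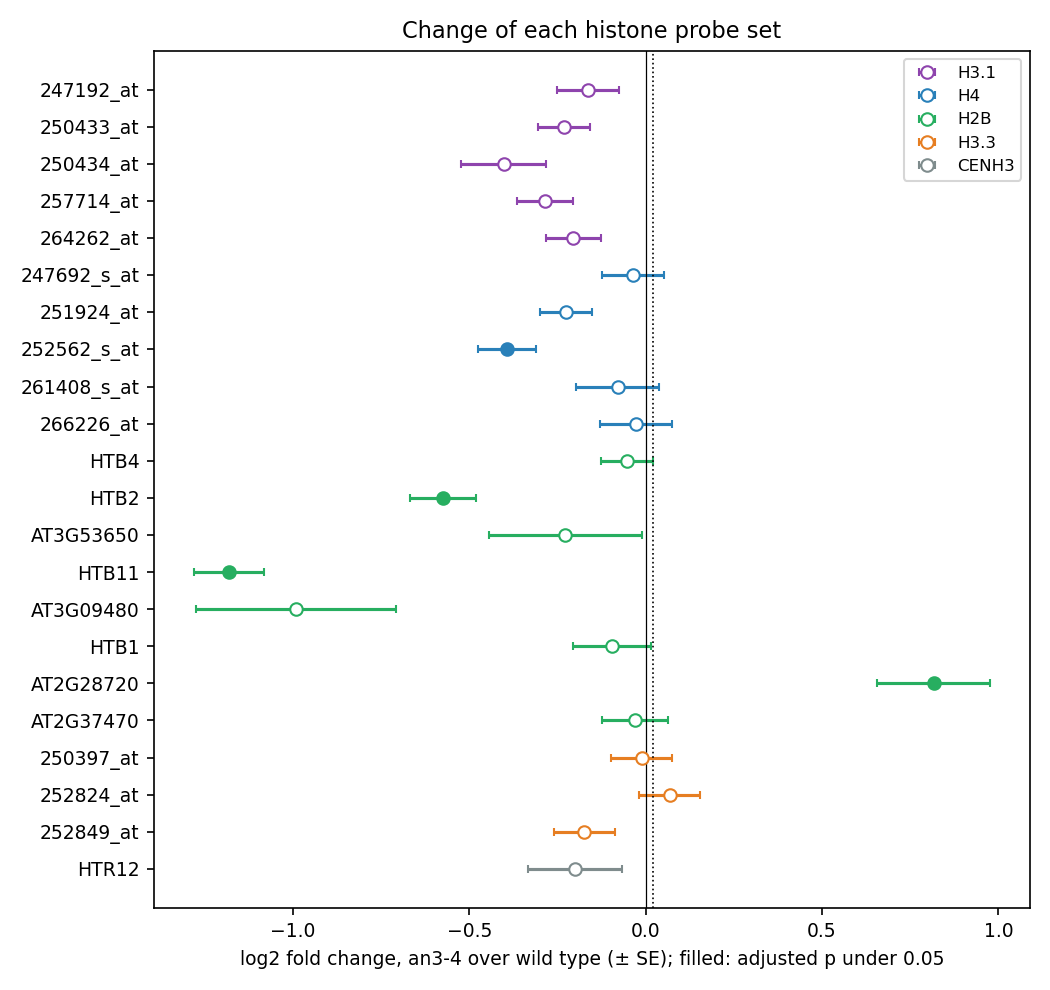
Log2 fold change of an3-4 over wild type ± SE for 22 histone probe sets, coloured by class, with filled points for an adjusted p under 0.05 in limma and a dotted line at 0.02, the median of all probe sets; AT5G02570, dim on every array, is left out. The H3.1 points all lie left of 0 between -0.40 and -0.16, and the H2B points spread from -1.18 to 0.82.

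HTB11 lies on chromosome 3 between AT3G44100 and AT3G47000, a stretch earlier picked out in these data for its many lower genes. In it 9 of 145 measured named genes, HTB11 among them, were called lower and 4 higher. So 6.21% were lower, against 1.97% of the 2586 other genes of the chromosome. Over all 13351 named genes 2.14% were lower and 2.16% higher. The stretch was picked for its lower genes, so its higher share is no separate evidence. The H4 loci AT3G45930 and AT3G46320, listed for every H4 probe set, lie in the stretch too. The part of that position in the call of 252562_s_at was not tested. Close to HTB11 no such share of lower calls was found, but most genes there were dim. Of the 20 nearest measured genes, 10 on each side, 0 were called lower and 1 was called higher in limma, and 3 had an unadjusted p under 0.05. The 20 had a median log2 fold change of -0.04. Of the 80 nearest, 1 was called lower and 3 higher. HTB2 had 0 of 20 neighbours called in limma, with 3 at an unadjusted p under 0.05. AT2G28720 had 1 called higher and 0 lower, also with 3 at an unadjusted p under 0.05. Over all 22746 probe sets, 3916 had an unadjusted p under 0.05 in either direction.

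**Figure D5:**
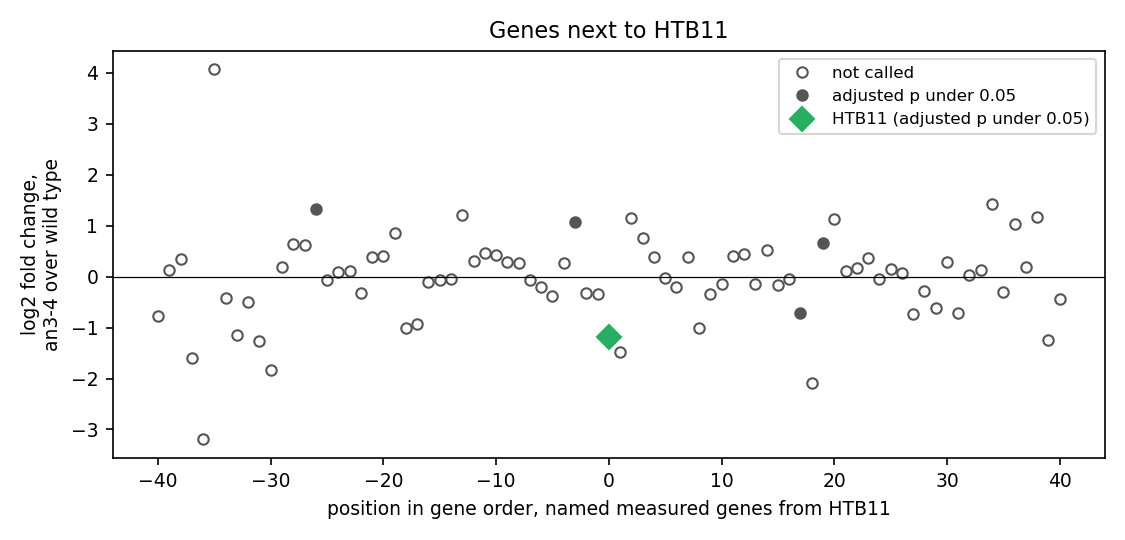
Log2 fold change of an3-4 over wild type for the 80 named measured genes nearest to HTB11 (40 on each side), by position in gene order; the green diamond is HTB11 and filled points have an adjusted p under 0.05 in limma. Among the neighbours 1 filled point lies below 0 and 3 above, and unfilled points far from 0, mostly dim genes, did not pass the test.

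Other genes that act with histones or in the same phase of the cell cycle were sparsely measured. All 3 genes of linker histone H1, which binds DNA between nucleosomes, were measured. In limma 0 were called, with none at an unadjusted p under 0.05, but HIS1-3 lay under the 40th percentile on every array. AT1G06760 had a log2 fold change of -0.10 ± 0.08 and AT2G30620 of 0.05 ± 0.08. Of 13 histone chaperone genes 3 were measured and 0 were called, with 2 at an unadjusted p under 0.05, in opposite directions. Such a p in either direction was found for 3916 of all 22746 probe sets and 2488 of the 9098 in the brightest 40%. ASF1B, a chaperone of newly made H3 and H4, had signals of 343 and 269 in an3-4, against 223 and 257 in wild type. Both an3-4 arrays were higher, by 0.35 ± 0.13 (limma adjusted p = 0.189). The difference was 0.17 without an3-4 replicate 1 and 0.52 without an3-4 replicate 2. AT4G37210 had 379 and 393 in an3-4, against 449 and 458 in wild type, lower by -0.23 ± 0.08 (limma adjusted p = 0.138).

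Of 13 genes for the replication fork and nucleotide supply 2 were measured, and PRL, the MCM7 subunit of the replicative helicase, fell. Its signals were 358 and 394 in an3-4, against 488 and 599.8 in wild type, -0.53 ± 0.11 on the log2 scale (limma adjusted p = 0.0235). PRL lies in a stretch of chromosome 4 that was picked out in the same way as the one around HTB11, and the part of that position in its value was not tested. The call was lost without an3-4 replicate 1 (-0.46, adjusted p = 0.103), without wild-type replicate 2 (-0.38, adjusted p = 0.0995) and on the scale as deposited (adjusted p = 0.236), in a range over its alternatives of 5.40e-04 to 0.384. The other measured member, ICU2, a subunit of DNA polymerase alpha, had signals of 129 and 141 in an3-4, against 129 and 139 in wild type, which overlapped, and was not called (log2 fold change 0.01 ± 0.12, 95% interval -0.26 to 0.27, limma adjusted p = 0.990). ICU2 is outside the rule for named genes and was named after its values were seen. No member of the E2F, DP and RBR list, which controls entry into S phase, was named on the array. Of the 10 mitotic genes the 3 Aurora kinases were measured, 0 were called in limma and all 3 were at an unadjusted p under 0.05. AUR3 had 102 and 78.9 in an3-4, against 126 and 134 in wild type, a difference of -0.54 ± 0.15 (limma adjusted p = 0.0866). AUR2 had 249 and 276 in an3-4, against 297 and 335 in wild type, a difference of -0.27 ± 0.10 (limma adjusted p = 0.190). Both an3-4 arrays lay below both wild-type arrays for all 3 Aurora genes, a separation that 20.9% of all probe sets and 26.3% of the brightest 40% showed. An unadjusted p under 0.05 with a lower value was found for 7.74% and 12.8% of these.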

How the data were processed

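Total RNA (10 µg per array) of leaf primordia was measured on Affymetrix arrays. The authors deposited a linear signal intensity for each probe set, made with MAS5 per the submitters' processing notes, which give neither version nor scaling target. Of 22810 probe sets, 64 controls were left out. Each array was scaled to the same mean with 2% trimmed from each end, and log2 signals of all 22746 probe sets were fitted in limma 3.58.1 under R 4.3.3 (lmFit, eBayes with intensity trend, genotype as the only term, 2 residual and 6.96 prior degrees of freedom), with Benjamini-Hochberg adjustment over all of them and calls at an adjusted p under 0.05. Intervals are limma's at 95%.

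Names came from the platform annotation, with 1 gene for 13514, several for 502 and none for 8730. They were updated through the RefSeq gene table of TAIR10.1. Chromosomes and start positions from that table served to put genes in order for the neighbour counts. No H3.1, H4 or H3.3 locus had a probe set of its own, so the values of these classes come from the 13 shared probe sets, where the fixed plan had meant these as an addition. A gene with several probe sets was represented by its brightest. No sequences were used here. Histone members and gene lists were chosen with earlier results of these data known. Besides histones, genes were named as the called members of a list, up to 4, or else the 2 with the smallest p. The share among the brightest 40%, the 40th percentile as a floor and the contrasts of single classes were chosen after the data were examined. The fit was tested on simulated data. Alternatives were the deposited scale, quantile normalization, median centring, filters on 40% and 60% of probe sets, an offset of 32, no trend, robust eBayes, a block for replicate number, each array left out in turn and an adjusted p under 0.1.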

Additional observations from a re-analysis of the deposited data

How the results depend on the processing

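All 4 histone calls (HTB11, HTB2, AT2G28720 and 252562_s_at) kept their direction in every fit that tested them, and were kept together with quantile normalization, median centring, the 40% filter, robust eBayes and the replicate block. Of the loci with their own probe set, 3 of 10 were called, 1 with the values as deposited and 0 without the intensity trend (4 of 10 at an unadjusted p under 0.05). Over all probe sets the 1173 calls became 540 as deposited, 595 with the offset of 32, 0 without the trend (2808 at an unadjusted p under 0.05), 1824 at an adjusted p under 0.1, 1825 with the replicate block, and 665 to 884 with 1 array left out, where the lone array is assumed to vary like the other genotype. The causes were not tested. Same-numbered arrays shared a scale as deposited. Once that was removed, their deviations from the genotype means correlated at -0.01 over all probe sets and 0.04 over the brightest 60% (probe sets are not independent), and the labels name no shared plants or batch, so the replicate block stays an alternative. The block added 250434_at and 257714_at to the histone calls and AUR3 to the other named genes, and the 40% and 60% filters added 250434_at and AUR3. The 60% filter, which left 18 histone probe sets, did not test AT2G28720.

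Median centring gave class medians of -0.28 for H3.1, -0.14 for H2B and -0.061 for H3.3, and quantile normalization -0.051 for H2B. Leaving out an array gave medians from -0.23 to 0.0053 for H4 and from -0.080 to 0.040 for H3.3. The contrast of H3.1 and H4 with H3.3, -0.17, was -0.22 for H3.1 alone and -0.11 for H4 alone. Among the histone probe sets and the list genes named, directions reversed only for uncalled values near 0. With an array left out, 247692_s_at ran from -0.077 to 0.0053, 261408_s_at from -0.25 to 0.094, 266226_at from -0.15 to 0.096, HTB1 from -0.27 to 0.082, AT2G37470 from -0.081 to 0.019 and 250397_at from -0.080 to 0.057, and AT2G30620 was -0.00035 with median centring. No locus had more than 1 probe set of its own, so averaging probe sets changes nothing. The dim loci AT5G02570 and AT3G09480 are limited by their signal.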
